A study of Mus musculus with 16 samples.

Results

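The 10 genes described here are the core of peptide presentation by MHC class I in the mouse host of a human breast tumour xenograft: Nlrc5, the inducible proteasome subunit genes Psmb8, Psmb9 and Psmb10, the peptide transporter genes Tap1 and Tap2, the loading factor gene Tapbp, the heavy chain genes H2-K1 and H2-D1, and B2m, the light chain gene. They were taken by exact symbol from a table of 24681 mouse gene symbols, and all 10 were found and passed the filter on low counts. Each of 16 SCID mice carried 1 tumour of AU565(pv), a HER2-positive human breast cancer line, in the mammary fat pad, and was treated by intraperitoneal injection once the tumour measured 20 to 25 mm2. The vehicle group received dextrose solution and PBS, the trastuzumab group dextrose solution and 10 mg/kg trastuzumab, the panobinostat group 15 mg/kg panobinostat and PBS, and the combination group both drugs at those doses, with 4 mice in each group. Panobinostat or its vehicle was given on days 0 and 1. Trastuzumab is an antibody to human HER2, and its injection is placed on day 0 in the treatment protocol and on day 1 in the design text. Panobinostat inhibits histone deacetylases. Whole tumours were taken on day 2, and RNA was counted on mouse genes only. The values are read here as those of host cells mixed through the tumour. Any reads of human tumour cells that were counted on mouse genes cannot be separated from them. The same mice lack mature T and B cells in all groups, and the labels give no background strain. Ages are not given in the labels.

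MHC class I molecules show peptides from inside the cell to CD8 T cells and are read by inhibitory receptors of NK cells. Proteins are cut by the proteasome, in which inducible catalytic subunits can replace the constitutive ones, and the TAP transporter moves the peptides into the endoplasmic reticulum, where tapasin helps load them onto a heavy chain paired with beta-2 microglobulin. NLRC5 is a transactivator that acts on class I promoters through factors bound to a shared module of short boxes, and interferon signalling, in part through IRF1, raises much of the pathway, Nlrc5 included.

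The promoters show how the members differ in sequence, so those of the classical chains, of B2m and of Tap1 are given first. RefSeq windows on GRCm38.p6, from 250 bases before to 50 bases after the start site, were matched for 8 of the 10 members, all but Nlrc5 and Tap2. Each is printed 5′ to 3′ on the strand of the gene, with matches to any of the motifs named below in capitals.
H2-K1, chr17:34000298-34000597, minus strand: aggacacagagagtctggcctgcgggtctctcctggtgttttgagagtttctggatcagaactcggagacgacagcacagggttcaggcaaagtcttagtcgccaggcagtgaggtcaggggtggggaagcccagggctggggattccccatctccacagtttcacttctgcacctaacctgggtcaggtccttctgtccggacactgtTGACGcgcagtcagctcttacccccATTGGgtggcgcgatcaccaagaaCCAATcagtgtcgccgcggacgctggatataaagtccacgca
H2-D1, chr17:35262844-35263143, plus strand: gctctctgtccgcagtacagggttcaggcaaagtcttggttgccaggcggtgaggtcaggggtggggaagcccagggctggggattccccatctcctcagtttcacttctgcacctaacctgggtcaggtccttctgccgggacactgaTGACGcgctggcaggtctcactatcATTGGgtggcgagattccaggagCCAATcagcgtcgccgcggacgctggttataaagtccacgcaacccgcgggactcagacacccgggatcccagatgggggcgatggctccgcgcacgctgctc
B2m, chr2:122147437-122147736, plus strand: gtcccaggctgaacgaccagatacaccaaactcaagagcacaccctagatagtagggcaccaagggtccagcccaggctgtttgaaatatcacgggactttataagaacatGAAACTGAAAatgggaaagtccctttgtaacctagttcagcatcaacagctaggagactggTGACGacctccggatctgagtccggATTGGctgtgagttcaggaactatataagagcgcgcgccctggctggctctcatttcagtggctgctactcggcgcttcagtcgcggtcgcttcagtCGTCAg
Tap1, chr17:34187306-34187605, plus strand: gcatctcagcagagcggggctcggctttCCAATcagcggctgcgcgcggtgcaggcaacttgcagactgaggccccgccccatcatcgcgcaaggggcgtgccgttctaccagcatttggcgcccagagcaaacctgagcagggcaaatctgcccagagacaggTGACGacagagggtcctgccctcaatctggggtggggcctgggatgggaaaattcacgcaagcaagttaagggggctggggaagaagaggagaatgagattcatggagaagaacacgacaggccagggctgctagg
The motifs searched on both strands were TGACG (the core of the X2 box), CCAAT (the Y box), GAAANNGAAA (an interferon-stimulated response element, ISRE) and TTCNNNGAA (a gamma-activated site, GAS). Of all 32851 RefSeq promoter windows, 20.8% held TGACG, 37.4% CCAAT, 3.44% the ISRE letters and 8.3% the GAS letters. In H2-K1, H2-D1 and B2m, TGACG stood with 20 bases between it and an ATTGG, the reverse complement of CCAAT, on the strand of the gene. That spaced pair, which was looked for after these promoters had been read, was present in 31 of the 32851 windows (0.0944%), and the members holding it were these 3. The Tap1 window held TGACG and CCAAT far apart. It also covers the start of Psmb9, which is read in the opposite direction: the 2 start sites are 226 bases apart, and the windows share 275 of their 300 bases. The ISRE letters were found among the members in B2m only, as GAAACTGAAA 139 bases before its start site, and the GAS letters in Psmb8 only, as TTCCCAGAA 97 bases before its start site. A match is a match of letters and was not tested as a binding site. Only these exact letters and spacings were searched, so a response element written otherwise stays unmarked. A window without a match may therefore still hold such an element.

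Library totals ran from 4848244 to 8140782 counts, and no pair of replicates could be 1 library deposited again: the chi-square of their counts divided by its degrees of freedom was 4.32 to 37.04. The labels name no sequencing batch. Some symbols lack a value in the panobinostat-treated libraries, a gap that runs along the panobinostat comparison. Markers of stromal cells were abundant: summed CPM (library-size normalised counts after TMM scaling) of 10 fibroblast markers was 13318 to 26744 and of 11 macrophage markers 7931 to 11668. Of the T and B cell markers, Cd3d, Cd3g, Cd79a and Ms4a1 were at 0 in 3 or more of the 16 libraries each. Others of that list were counted: 4 passed the filter, and 0 of 4 were called with both drugs against vehicle. The 9 markers with a match summed to 21.6 to 50.7 CPM in vehicle and 11.3 to 39.9 in trastuzumab tumours. In panobinostat tumours they summed to 12.9 to 54.1 CPM and in combination tumours to 15.9 to 51.9. In whole tumours, fewer cells of a type and less RNA per cell cannot be told apart. The share of human reads was not measured here.

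Levels compared between genes are given per kilobase of annotated exon. In vehicle tumours the members spanned a wide range of CPM per kb, from 1554 ± 137 (SD, n = 4) for B2m to 2.54 ± 0.588 for Nlrc5. Between them stood H2-D1 at 529 ± 102, H2-K1 at 311 ± 41.5, Tapbp at 51.2 ± 8.60, Psmb10 at 43.6 ± 8.96, Psmb8 at 27.8 ± 7.37, Psmb9 at 15.0 ± 3.74, Tap2 at 11.1 ± 0.592 and Tap1 at 9.80 ± 1.46 CPM per kb. The vehicle ranges of Tapbp and Psmb10, of Psmb9 and Tap2, and of Tap2 and Tap1 overlapped, so their order is within the spread, while the other neighbours in that order did not overlap. With both drugs Tap1 stood at 19.6 ± 6.13 and Tap2 at 17.0 ± 4.63 CPM per kb, with ranges that again overlapped. H2-K1 and H2-D1 were counted against the C57BL/6 reference, in which 9.63% and 12.8% of the 50-base stretches of their transcripts recur in other genes, among them each other, H2-Q7 and other class I genes; these genes also vary between strains, so their counts are uncertain in mice of unstated background.

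Nlrc5 and Tap1 were the members called higher with panobinostat when averaged over tumours with and without trastuzumab, at 1.96-fold and 1.72-fold. With panobinostat alone against vehicle neither passed (edgeR adjusted p = 0.193 and 0.316). With both drugs Nlrc5, which drives class I transcription, was 2.66-fold above vehicle, and Tap1, one chain of the peptide transporter, was 2.00-fold above. The inducible proteasome subunits and Tap2 had smaller positive changes that did not pass the test, and the classical chains had changes near 0.

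Nlrc5 (chr8:94434356-94527272, plus strand) was low in the counts on mouse genes and differed most between libraries of all the members. In vehicle tumours it measured 19.7, 28.8, 17.4 and 20.3 CPM in replicates 3, 6, 21 and 29, and in trastuzumab tumours 36.4, 28.2, 18.4 and 27.2 CPM in replicates 12, 15, 20 and 24. In panobinostat tumours it measured 44.0, 41.8, 29.7 and 43.8 CPM in replicates 4, 7, 8 and 13, and in combination tumours 37.9, 59.7, 45.7 and 86.2 CPM in replicates 2, 11, 16 and 22. All 4 panobinostat and all 4 combination tumours lay above all 4 vehicle tumours, and trastuzumab tumours overlapped vehicle. Between both drugs and vehicle the log2 change was 1.41 ± 0.25 (SE), with an adjusted p of 0.00546 by edgeR's quasi-likelihood test with Benjamini-Hochberg adjustment over all genes. With a leukocyte marker score as a covariate it was 0.66 and the call was lost (edgeR adjusted p = 0.487). Over the 8 tumours with panobinostat the mean was 48.6 ± 17.3 CPM (SD), against 24.5 ± 6.64 in the 8 without, and 7 of the 8 lay above every tumour without the drug. The panobinostat change averaged over trastuzumab was 0.97 ± 0.17 on the log2 scale (edgeR adjusted p = 0.00467).

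Tap1 (chr17:34187553-34197225, plus strand) measured 49.1, 57.6, 45.2 and 62.9 CPM in vehicle replicates 3, 6, 21 and 29. It measured 82.7, 58.4, 41.1 and 48.8 CPM in trastuzumab replicates 12, 15, 20 and 24, and 93.7, 99.8, 72.2 and 76.6 CPM in panobinostat replicates 4, 7, 8 and 13. In combination replicates 2, 11, 16 and 22 it measured 81.4, 134, 75.4 and 138 CPM. Both groups given panobinostat lay wholly above vehicle, and trastuzumab replicate 12 reached into their range. The log2 change with both drugs against vehicle was 1.00 ± 0.22 (edgeR adjusted p = 0.0223), and that of panobinostat averaged over trastuzumab 0.78 ± 0.16 (edgeR adjusted p = 0.0103). The first of these calls was lost when vehicle replicate 3, 6 or 21 (edgeR adjusted p = 0.0617, 0.0534 and 0.0698) or combination replicate 11 or 22 (0.0936 and 0.0775) was left out, when the 2 groups were fitted alone (0.0576), and with a luminal epithelial (0.212) or a leukocyte marker score (0.552, with a log2 change of 0.58) as a covariate. The averaged call held with each of the 16 libraries left out, with adjusted p up to 0.0299 by edgeR. The exons of Tap1 and Psmb9 overlap on opposite strands over 212 bases and the library kit does not keep strand, so reads there cannot be assigned to one of them.

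**Figure D1:**
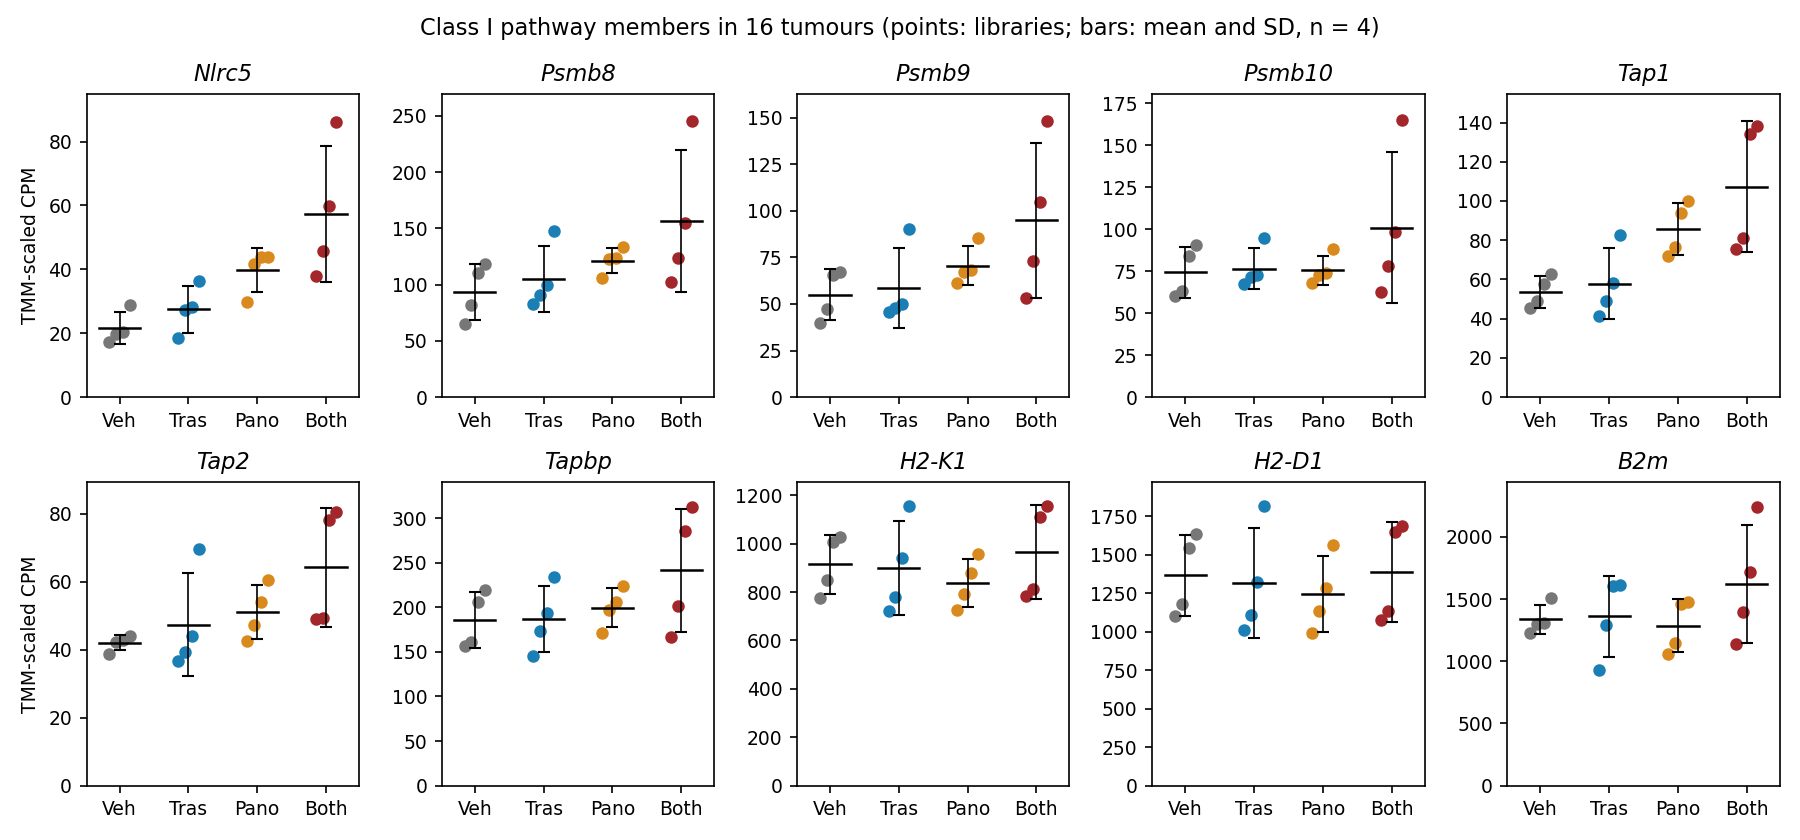
Level of each of the 10 members, in TMM-scaled CPM on axes that start at 0, in vehicle (Veh), trastuzumab (Tras), panobinostat (Pano) and combination (Both) tumours; points are libraries, and bars give the mean and SD of 4. In the Nlrc5 panel the panobinostat and combination points lie above all vehicle points, from 29.7 to 86.2 against 17.4 to 28.8 CPM, while the H2-K1 and H2-D1 panels show 4 overlapping groups.

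Tap2 (chr17:34203527-34216321, plus strand), which pairs with Tap1 in the transporter, measured 38.8 to 44.0 CPM in vehicle and 49.2, 78.2, 49.2 and 80.6 CPM in combination replicates 2, 11, 16 and 22. All combination tumours lay above all vehicle tumours, and trastuzumab tumours (36.7 to 69.6 CPM) and panobinostat tumours (42.4 to 60.4 CPM) overlapped vehicle. Its log2 change with both drugs was 0.62 ± 0.20 and did not pass the test (edgeR adjusted p = 0.144). For panobinostat averaged over trastuzumab it was 0.36 ± 0.14 (edgeR adjusted p = 0.245), and without trastuzumab replicate 12, the highest of the 8 tumours without panobinostat, it was 0.48 and passed (0.0451). Gm15821, on the opposite strand, overlaps 14.1% of the Tap2 exon bases, so unstranded reads there are uncertain.

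Psmb8, Psmb9 and Psmb10 encode the inducible catalytic subunits that take the places of those of Psmb5, Psmb6 and Psmb7. Psmb8 measured 64.8 to 118 CPM in vehicle and 124, 155, 102 and 246 CPM in combination replicates 2, 11, 16 and 22. Psmb9 measured 39.6 to 67.4 CPM in vehicle and 73.1, 105, 53.3 and 148 CPM in the same combination replicates. The groups overlapped for each gene, with combination replicate 16 inside the vehicle range. The log2 changes against vehicle were 0.74 ± 0.25 for Psmb8 (edgeR adjusted p = 0.155), 0.79 ± 0.28 for Psmb9 (0.184) and 0.44 ± 0.23 for Psmb10 (0.421). Without combination replicate 22 they were 0.44, 0.49 and 0.10, and with the leukocyte score 0.01, 0.10 and -0.18. For panobinostat averaged over trastuzumab they were 0.47 ± 0.17 for Psmb8 (edgeR adjusted p = 0.202), 0.53 ± 0.20 for Psmb9 (0.209) and 0.21 ± 0.16 for Psmb10 (0.661). Every one of the 8 panobinostat-treated tumours lay above the median of the 8 without it for Psmb8 and for Psmb9, and 6 of 8 did for Psmb10. Opposite-strand transcripts overlap 14.7% of the exon bases of Psmb8 (Gm20496), and reads there cannot be told apart without strand.

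The ratio of an inducible subunit to the constitutive subunit it replaces was read within each library, so that library scaling does not enter. The log2 ratio of Psmb9 to Psmb6 counts was -1.24 ± 0.201 (SD, n = 4) in vehicle, -0.892 ± 0.142 in panobinostat and -0.502 ± 0.530 in combination tumours. For Psmb8 to Psmb5 it was -0.961 ± 0.260 in vehicle, -0.639 ± 0.148 in panobinostat and -0.211 ± 0.596 in combination tumours. For Psmb10 to Psmb7 it was -2.59 ± 0.484 in vehicle, -2.78 ± 0.278 in panobinostat and -2.32 ± 0.709 in combination tumours. With both drugs against vehicle the log2 ratio differed by 0.75 for Psmb8 to Psmb5 and by 0.74 for Psmb9 to Psmb6, each with an exact two-sided permutation p of 0.0571 and an adjusted p of 0.214 over 15 comparisons, and by 0.27 for Psmb10 to Psmb7 (exact p = 0.514), the last of which was 0 without combination replicate 22. With panobinostat alone the differences were 0.32 for Psmb8 to Psmb5 (exact p = 0.0571), 0.35 for Psmb9 to Psmb6 (exact p = 0.029, adjusted p = 0.214) and -0.19 for Psmb10 to Psmb7 (exact p = 0.457). None of the 15 passed after adjustment, and 0.029 is the smallest p that 4 against 4 libraries can give. A lone ratio at that p cannot pass an adjustment over 15 comparisons, so the adjusted result decides nothing about a single ratio. The constitutive subunits themselves had log2 changes of -0.05 for Psmb5, -0.04 for Psmb6 and 0.09 for Psmb7 with both drugs against vehicle, and none passed the test.

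**Figure D2:**
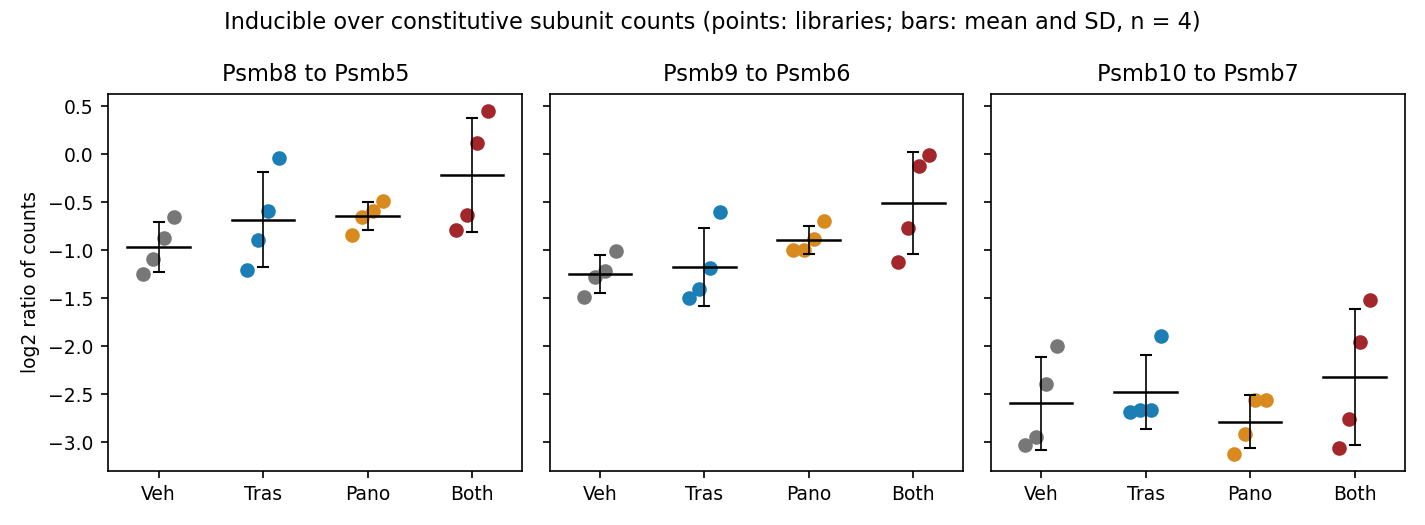
Log2 ratio of counts of each inducible catalytic subunit to the constitutive subunit it replaces, per library, with the mean and SD of 4 in vehicle (Veh), trastuzumab (Tras), panobinostat (Pano) and combination (Both) tumours. The mean Psmb9 to Psmb6 ratio was -1.24 in vehicle and -0.502 with both drugs, where the 4 libraries were widely spread, and the Psmb10 to Psmb7 ratio overlapped in all groups.

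The genes that build the class I molecule itself showed no change that passed the test. H2-K1 (chr17:33996017-34000347, minus strand) measured 849, 1027, 775 and 1006 CPM in vehicle replicates 3, 6, 21 and 29 and 811, 1111, 782 and 1156 CPM in combination replicates 2, 11, 16 and 22. H2-D1 (chr17:35262730-35267499, plus strand) measured 1178, 1634, 1103 and 1543 CPM in the same vehicle tumours and 1132, 1683, 1077 and 1648 CPM in the same combination tumours. For both genes the groups overlapped almost completely, and each of these 2 groups held a low pair and a high pair of tumours. The log2 change with both drugs against vehicle was 0.08 ± 0.17 for H2-K1 (edgeR adjusted p = 0.903) and 0.02 ± 0.21 for H2-D1 (0.983). With panobinostat averaged over trastuzumab it was -0.01 ± 0.12 for H2-K1 (edgeR adjusted p = 0.985) and -0.03 ± 0.15 for H2-D1 (0.967).

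B2m (chr2:122147686-122153083, plus strand), the shared light chain, measured 1229 to 1505 CPM in vehicle and 1393, 1717, 1139 and 2238 CPM in combination replicates 2, 11, 16 and 22. The combination tumours lay below, within and above the vehicle range. Its log2 change was 0.28 ± 0.20 with both drugs (edgeR adjusted p = 0.601) and 0.10 ± 0.14 for panobinostat averaged over trastuzumab (0.852). Without combination replicate 22 these were 0.08 and 0, and without combination replicate 16 the first was 0.43. Tapbp, which encodes tapasin, measured 157 to 219 CPM in vehicle and 167 to 313 CPM in combination tumours. Its log2 changes were 0.38 ± 0.19 (edgeR adjusted p = 0.391) and 0.24 ± 0.13 (0.485) in the same 2 comparisons, the first being 0.23 without combination replicate 22. Of the Tapbp exon bases 24.9% overlap Gm19412, an antisense transcript, so its counts may include reads of that transcript.

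**Figure D3:**
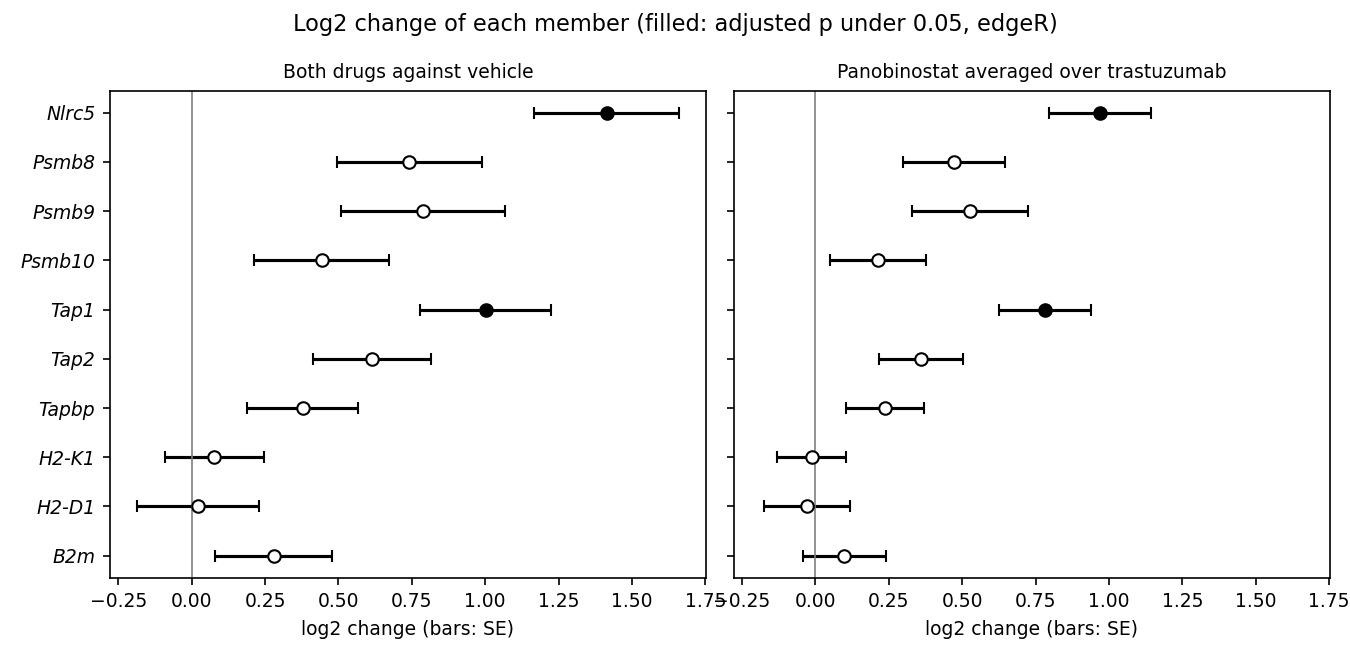
Log2 change of each member with its SE, for both drugs against vehicle and for panobinostat averaged over trastuzumab; filled points passed an adjusted p of 0.05 by edgeR. Nlrc5 (1.41 and 0.97) and Tap1 (1.00 and 0.78) are filled in both panels, while H2-K1 and H2-D1 lie within 1 SE of 0.

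Counted over the 10 members, 2 passed the test with both drugs against vehicle, both higher, beside 2.2% of the 15610 genes tested (343 genes). The members' median log2 change was 0.53 and 10 of 10 were above 0, beside a median of -0.0058 and 49% above 0 over all genes. Groups did not overlap, with combination higher, for Nlrc5, Tap1 and Tap2, and this held for 4.27% of all genes. For panobinostat averaged over trastuzumab 2 of 10 passed, beside 3.02% of all genes, the members' median was 0.30 and 8 of 10 were above 0. Over all genes that median was -0.0019, and 49.5% were above 0. These comparisons share the vehicle or the combination tumours and are not independent of each other. Combination replicates 11 and 22 were each among the 2 highest libraries for 9 members, so the members are not separate observations either.

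Panobinostat alone against vehicle gave changes of 0.88 ± 0.25 for Nlrc5 (edgeR adjusted p = 0.193) and 0.67 ± 0.22 for Tap1 (0.316) on the log2 scale, and the other members lay between -0.13 and 0.37. None of the 10 passed, beside 0.192% of all genes by edgeR (30 genes, with 1265 at an unadjusted p under 0.05), and DESeq2 called Nlrc5 among the members with an adjusted p of 0.0497 in a fit that called 154 genes in all. Nlrc5 and Tap1 did not overlap between these groups, which held for 3.32% of all genes. Both drugs against trastuzumab gave 1.05 ± 0.24 for Nlrc5 (edgeR adjusted p = 0.0610) and 0.89 ± 0.22 for Tap1 (0.0853). None of the 10 passed by edgeR there, beside 0.628% of all genes (98 genes, with 1445 at an unadjusted p under 0.05), and DESeq2 called 2, Nlrc5 and Tap1, with 230 genes called in all. In this comparison edgeR called Nlrc5 once trastuzumab replicate 12 (adjusted p = 0.0482), combination replicate 2 (0.0294) or combination replicate 16 (0.0373) was left out, and Tap1 without trastuzumab replicate 12 (0.0465) or combination replicate 16 (0.0309).

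Trastuzumab was not followed by a call for any member. Against vehicle the log2 change of Nlrc5 was 0.36 ± 0.25 and that of Tap1 0.11 ± 0.22, and 0.0% of all genes passed by edgeR, with 549 at an unadjusted p under 0.05 and 12 called by DESeq2, none of them a member. When it was added to panobinostat the 10 members' log2 changes were all above 0, with a median of 0.33, and the largest was that of Nlrc5 at 0.53 ± 0.24 (edgeR adjusted p = 0.976). Over all genes the median there was -0.0102, and 47.9% were above 0. In that comparison 0.0% of all genes passed by edgeR, with 700 at an unadjusted p under 0.05 and 14 called by DESeq2, none of them a member. Averaged over panobinostat, the trastuzumab change was 0.44 ± 0.17 for Nlrc5 (edgeR adjusted p = 0.682) and 0.22 ± 0.16 for Tap1 (0.938), with 0 of 10 members and 0.147% of all genes called (23 genes, with 927 at an unadjusted p under 0.05). The interaction of the drugs, which asks whether panobinostat's change differed with trastuzumab, was 0.17 ± 0.34 for Nlrc5 and 0.22 ± 0.31 for Tap1 on the log2 scale. It passed for 0 of 10 members and 0.0% of all genes by edgeR, with 279 at an unadjusted p under 0.05 and 0 called by DESeq2, so a difference between the panobinostat changes was not detectable with 4 tumours a group.

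Part of the spread ran across all the members by tumour. Combination replicate 22 was the highest of the 16 libraries for 9 of the 10 members, the exception being H2-D1, which was highest in trastuzumab replicate 12. These tumours also had the largest library totals, 8140782 and 7345222 counts. Trastuzumab replicate 20, the lowest for 5 members, had the smallest, 4848244. Vehicle replicate 21, the lowest for 4, had 5742451. The part of library totals in this spread and in the marker relations below was not tested. The ratio of the highest to the lowest library ran from 1.60 for H2-K1 to 4.96 for Nlrc5.

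The classical chains and most other members moved with adipocyte markers of the fat pad. The summed level of 9 adipocyte markers, none of them at 0 in any library, ran from 1539 to 6553 CPM in vehicle, 1459 to 7895 in trastuzumab, 1657 to 8537 in panobinostat and 1899 to 6821 in combination tumours. Over the 16 tumours H2-D1 on the log2 scale correlated with the mean log2 level of these markers with a Pearson's r of 0.82 and a Spearman's rho of 0.75 (permutation tests with 100000 resamples, p adjusted over 20 relations 0.0066 for r). Its r was 0.86 after centring within groups. For H2-K1 r was 0.75 and rho 0.74 (adjusted permutation p = 0.0131 for r), and without the 2 tumours farthest from the median of the markers r was 0.77. For Nlrc5 r was 0.40 and rho 0.38 (adjusted permutation p = 0.14 for r), and for Tap1 r was 0.49 and rho 0.55 (0.0867 for r). After centring within groups r was 0.81 for H2-K1, 0.64 for Tap1 and 0.58 for Nlrc5. The other 6 members had r between 0.57 and 0.70, with adjusted permutation p for r from 0.0131 (Tapbp) to 0.0411 (Psmb8). By rho, Tapbp (0.77) and Psmb10 (0.76) stood above H2-D1. When that mean marker level was a covariate, an alternative added after seeing the data, edgeR called 5 members with both drugs against vehicle: Nlrc5, Tap1, Tap2 with an adjusted p of 0.016, Psmb8 with 0.0337 and Psmb9 with 0.0495. That fit called 766 of the 15610 genes, against 343 without the covariate. H2-D1 then changed by -0.01 on the log2 scale.

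**Figure D4:**
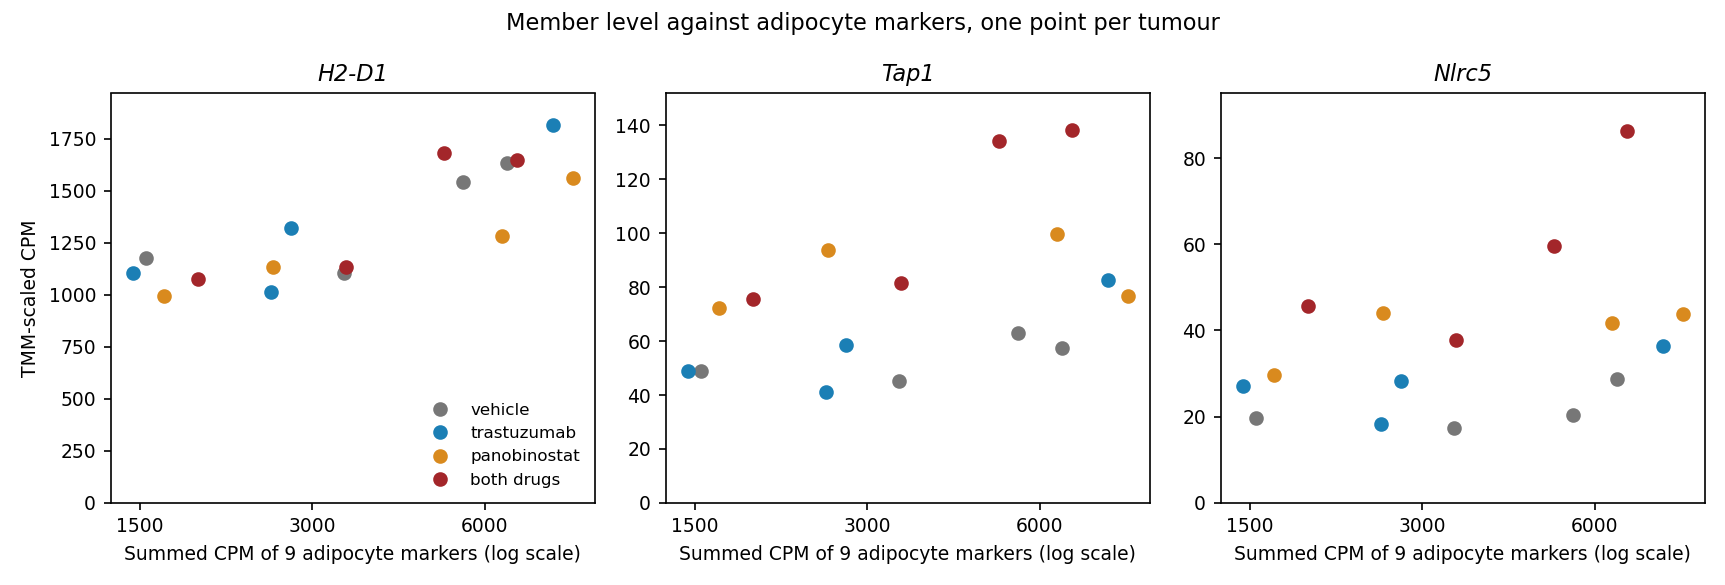
Level of H2-D1, Tap1 and Nlrc5 (TMM-scaled CPM, axis from 0) against the summed CPM of 9 adipocyte markers (log scale), 1 point per tumour coloured by group. H2-D1 was high in tumours with high marker levels, while Tap1 and Nlrc5 show panobinostat and combination tumours above vehicle tumours with like marker levels. The r of 0.82 for H2-D1 over 16 tumours used log2 levels and the mean log2 marker level, not the plotted values.

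Leukocyte markers summed higher in combination tumours than in most vehicle tumours. The summed level of 8 leukocyte markers, none of them at 0 in any library, was 1584 to 1843 CPM in vehicle, 1753 to 1955 in trastuzumab, 1680 to 1746 in panobinostat and 1827 to 2020 in combination tumours, and 1 of the 8, Ptprc, was called higher with both drugs against vehicle (log2 change 0.53 ± 0.13, edgeR adjusted p = 0.0440). With that score as a covariate, where Nlrc5 and Tap1 lost their calls with both drugs against vehicle, edgeR called 0 of the 15610 genes in that comparison, with 1649 at an unadjusted p under 0.05. Over the 16 tumours the leukocyte score correlated with Nlrc5 with r of 0.59 and rho of 0.34 (adjusted permutation p = 0.0406 for r) and with Psmb8 with r of 0.57 and rho of 0.32 (0.042 for r), and these were the 2 of 10 leukocyte relations with an adjusted p under 0.05. Without the 2 tumours farthest from the median of the score r was 0.27 for Nlrc5 and 0.08 for Psmb8, so both relations rest on those tumours. Panobinostat averaged over trastuzumab kept both calls with the same covariate, at 0.83 for Nlrc5 (edgeR adjusted p = 0.00934) and 0.70 for Tap1 (0.0331). The summed level of 10 NK cell markers was 22.1 to 42.4 CPM in vehicle, 27.3 to 113 in trastuzumab, 43.9 to 64.6 in panobinostat and 46.1 to 125 in combination tumours, and 3 of the 10 were called higher with both drugs against vehicle. That of 8 dendritic cell markers was 121 to 142, 138 to 198, 130 to 153 and 179 to 197 CPM in the same order of groups, with 1 of 8 called higher. The neutrophil markers summed to 162 to 245, 184 to 268, 128 to 167 and 113 to 146 CPM, with 3 of 6 tested called lower and Ly6g, a defining marker, at 0 in 12 of the 16 libraries. The luminal epithelial markers, 14 in number, summed to 807 to 1093, 1080 to 1276, 878 to 1179 and 837 to 1297 CPM, with 0 of 13 tested called. The fibroblast markers summed to 17404 to 26744, 14266 to 22698, 13318 to 21117 and 13702 to 16969 CPM in the same order, with 0 of 10 called and 0 of 10 above 0 with both drugs against vehicle (median log2 change -0.43), and Fap and Col1a2 called lower for panobinostat averaged over trastuzumab. Of the macrophage markers, which summed to 8363 to 11668, 8964 to 10390, 7931 to 8838 and 8593 to 11534 CPM, 1 of 11, Msr1, was called higher with both drugs against vehicle. The endothelial markers summed to 328 to 474, 348 to 497, 362 to 479 and 428 to 486 CPM, with 0 of 10 called in that comparison and 1, Vwf, higher for panobinostat averaged over trastuzumab. Beside these marker counts, 2.2% of all genes were called with both drugs against vehicle and 3.02% for panobinostat averaged over trastuzumab. What part these cell types have in the Nlrc5 and Tap1 values was not tested. The leukocyte markers themselves ran higher in combination than in most vehicle tumours. A fit with that score therefore cannot tell cell content apart from treatment.

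The other parts of the pathway held no call with both drugs against vehicle or with panobinostat averaged over trastuzumab. In each of these comparisons 0 of 11 other subunits of the proteasome core, 0 of 5 proteasome activators, 0 of 10 loading and trimming factors and 0 of 20 other class I chains passed. Their median log2 changes with both drugs against vehicle were -0.10, 0.00, -0.06 and 0.23. Psme1 and Psme2, which encode the interferon-inducible proteasome activator, changed by 0.30 ± 0.15 (edgeR adjusted p = 0.391) and 0.09 ± 0.18 (0.893), and Erap1, which encodes the peptidase that trims peptides, by 0.19 ± 0.15 (0.647). Of the loading factors, Tapbpl, a relative of tapasin, stood at 0.49 ± 0.19 (edgeR adjusted p = 0.251) and Sec61b, a channel subunit, at -0.42 ± 0.19 (0.325), and of the core subunits Psmb3 at -0.19 ± 0.09 (0.321) and Psma6 at -0.27 ± 0.14 (0.399). Among the other class I chains the smallest p belonged to H2-T24 at 0.37 ± 0.12 (edgeR adjusted p = 0.144) and H2-T10 at 0.50 ± 0.18 (0.180).

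Some of the factors known to drive the pathway rose. Of 26 regulators tested, with a median of 0.12, 4 rose with both drugs against vehicle and 0 fell, beside 2.2% of all genes called. Among them Ciita, the class II counterpart of Nlrc5, rose by 1.04 ± 0.18 (edgeR adjusted p = 0.00488), Stat2, which transmits interferon signals, by 1.03 ± 0.22 (0.0156) and Irf1 by 1.03 ± 0.23 (0.0207). These 3 also rose with panobinostat averaged over trastuzumab, where 4 of 26 rose in all, beside 3.02% of all genes called. Atf1 fell there by 0.26 on the log2 scale (edgeR adjusted p = 0.0366). From a list of class I receptors and related receptors, 2 of 8 genes tested rose with both drugs against vehicle, beside the same 2.2%. Klra2, of the Ly49 family of class I receptors, rose by 1.89 ± 0.27 (edgeR adjusted p = 0.00129). Lilrb4, of the leukocyte immunoglobulin-like receptor family, rose by 0.78 ± 0.18 (0.0307). With the leukocyte score as a covariate 0 of the 15610 genes were called in that comparison, so the regulator and receptor calls were lost too.

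Among the 8 genes with the profile most like that of Nlrc5 over the 16 libraries, by the root mean square difference of centred log2 CPM, were Parp14 (0.193), Oas2 (0.201), Ifi44l (0.208), Slfn8 (0.212), Irf1 (0.221), Xaf1 (0.227) and Gbp9 (0.231). The median gene differed by 0.665 and the centred log2 CPM of Nlrc5 had a root mean square of 0.616. Among the members Tap1 ranked 12 of 15609 genes at 0.241, Psmb8 55, Psmb9 86, Tap2 127, Tapbp 207, Psmb10 337 and B2m 600. H2-K1 ranked 1355 and H2-D1 1759, the lowest likeness to Nlrc5 among the members. The measure uses the same libraries as the comparisons above and describes them.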

How the data were processed

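The authors' deposited table holds read counts per mouse gene symbol for whole tumours of 16 mice. Per the submitters' processing notes, the tools named are CASAVA 1.8.2, TopHat2 and HTSeq with the mm10 build; other settings were not given in those notes, and the kit named in the labels' protocols does not keep strand. Symbols missing a value in panobinostat-treated libraries (1327 of 24681) were left out, leaving 23354. In each of the other libraries those symbols held 142 to 2963 counts in all. The gap thus runs along the panobinostat comparison. Whether the panobinostat-treated libraries were processed apart was not tested. The 10 members and all lists were chosen with earlier results of these data known.

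Counts were filtered with filterByExpr (15610 genes kept), scaled by TMM and fitted with edgeR 4.0.16 in R 4.3.3 (limma 3.58.1), with 1 mean per group over all 16 libraries. The quasi-likelihood F test was used, p-values were adjusted by Benjamini-Hochberg over all genes, and genes were called at an adjusted p under 0.05. An approximate SE was taken as the log2 change over the root of its F. The script was tested on simulated data. Subunit ratios used a pseudocount of 0.5. Genes named are all members, up to 3 called genes per list in the comparison of both drugs with vehicle (or, with none, up to 2 of smallest p), 9 pathway genes chosen by name and the 8 nearest to Nlrc5, besides which Atf1 and the called cell type markers were named after their values were seen. A few of the listed genes are not reported here. Of the listed symbols 5 had no match, and 2 were matched under older names. Exons came from GENCODE on GRCm38. Labels do not say whether tumours shared a litter or extraction, so p-values measure the spread between these tumours. The alternatives tried were other scalings and filters, DESeq2 1.42.0, a fit of the compared groups alone, marker scores as covariates and leaving out each library.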

Additional observations from a re-analysis of the deposited data

Results flagged for a closer look

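Of 52 groups of 4 values examined, 3 held a library far from its others, where chance flags about 1 in 20. Nlrc5 in panobinostat replicate 8 measured 29.73 CPM, below the 41.83 to 43.99 CPM of the other 3 panobinostat tumours and still above every vehicle tumour. Psmb9 in trastuzumab replicate 12 measured 90.36 CPM, above the 45.65 to 50.17 CPM of the other 3 trastuzumab tumours. In the same tumour the log2 ratio of Psmb10 to Psmb7 was -1.893, against -2.683 to -2.661 in the other 3. That tumour also had the highest H2-D1 level of all 16 libraries and the highest summed level of adipocyte markers among the trastuzumab tumours, 7895 CPM. The part of those markers in the Psmb9 value was not tested.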

How the results depend on the processing

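The calls of Nlrc5 and Tap1 for panobinostat averaged over trastuzumab held under all 24 alternatives each. With both drugs against vehicle Nlrc5 held under 24 of 25, the exception being the leukocyte score, and Tap1 under 17 of 25. The number of members called there, 2, became 1 with the compared groups alone or a luminal epithelial score, 0 with the leukocyte score and 5 with the adipocyte score, and was 1 to 2 with 1 library left out. For panobinostat against vehicle 0 became 1 with DESeq2 or the adipocyte score. For both drugs against trastuzumab 0 became 1 with total-count scaling and 2 with DESeq2 or the adipocyte score, and was 0 to 2 with 1 library left out. The genes called of all tested moved too: 343 with both drugs against vehicle ranged from 0 to 766, 30 with panobinostat alone from 3 to 239, 98 with both against trastuzumab from 3 to 230, 471 averaged over trastuzumab from 329 to 972, and 23 averaged over panobinostat from 0 to 64.

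Signs turned only for uncalled changes. With the leukocyte score the log2 changes with both drugs against vehicle became -0.20 for H2-K1, -0.26 for H2-D1, -0.25 for B2m, -0.04 for Tapbp and -0.18 for Psmb10; trastuzumab against vehicle became -0.26 for Tap1 and -0.29 for Nlrc5; trastuzumab averaged over panobinostat became -0.12 and -0.17; both drugs against panobinostat became -0.05 for Nlrc5, and panobinostat averaged became -0.01 for B2m. H2-D1 with both drugs against vehicle was -0.08 with the luminal score and -0.01 with the adipocyte score, and H2-K1 for panobinostat averaged was 0.01 with total-count scaling. Leaving out 1 library, H2-K1 ranged from -0.02 to 0.18 and H2-D1 from -0.08 to 0.14 with both drugs against vehicle, and from -0.06 to 0.06 and -0.09 to 0.07 for panobinostat averaged. In the same way Tap1 with trastuzumab against vehicle ranged from -0.12 to 0.24, the Nlrc5 interaction from -0.10 to 0.37, and the Psmb10 to Psmb7 ratio with panobinostat against vehicle from -0.34 to 0. The cause was not tested. No paired analysis was possible because the groups share no replicate numbers. With 4 tumours a group and the spread of the combination group, the changes of Tap2, Psmb8 and Psmb9 were not resolved.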
